A study of Mus musculus with 3 samples.

Results

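Matricellular proteins are secreted into the extracellular matrix mainly to modulate how cells contact it rather than to bear load. Periostin and 7 others were followed here by their genes Postn, Sparc, Tnc, Thbs1, Thbs2, Thbs4, Fn1 and Tgfbi, which are 8 of the 31053 genes in the deposited count tables. They were chosen by gene symbol, and each symbol matched 1 row. Fibronectin, encoded by Fn1, is a structural fibre protein that is often grouped with them because it binds several of the others.

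The data were 3 droplet single-cell RNA libraries (10x Genomics 3′ chemistry) from the calvaria, the flat bones of the skull roof, of C57BL/6 mice aged 8 weeks. The scratch-positive library came from the stage the labels call invasive: the bone surface was scratched with a needle, which strips the periosteum, before HNM007 cells were placed on it. The scratch-negative library came from the stage called pre-invasive, with HNM007 cells placed on unscratched bone. The control library came from bone without tumour. HNM007 is a mouse squamous carcinoma line, and the series concerns head and neck squamous cell carcinoma. In both tumour groups the tissue was taken 1 week after implantation and the tumour mass was cut out. In all 3 libraries, live cells with and without CD45, the surface protein of blood-derived cells, were mixed in equal numbers. The balance of stromal and immune cells was therefore altered by the sort and does not measure that of the tissue. The cells kept were not equally balanced in every library. Neutrophils alone made up 59.3% of those of the scratch-negative library and 73.3% of those of the control library. No library of scratched bone without tumour was analysed here, so the scratch, the lost periosteum and the invasive stage cannot be told apart. Each group had 1 library, and the labels do not say whether a library pooled several mice. No test across animals was therefore possible, and all intervals below cover counting error only.

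Periostin is made by fibroblasts of the periosteum, the sheath around bone, and binds integrins, collagen and tenascin C. SPARC (osteonectin) is abundant in bone matrix and binds collagen and mineral. Tenascin C is laid down around healing wounds and tumours. The thrombospondins 1, 2 and 4 bind matrix and cell surface receptors, and thrombospondin 1 can also release active TGF-beta from its latent complex. Fibronectin fibrils carry other matrix proteins to integrins, and the product of Tgfbi is an integrin ligand named for its induction by TGF-beta.

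Levels are given as CPM: the unique molecular identifiers (UMIs, counted RNA molecules) of a gene summed over the cells of 1 class in 1 library, per 1000000 UMIs of those cells. A ratio between libraries was called when it was at least 2-fold and its whole 95% interval (exact, from the counts) lay on that side of 1, over genes with at least 10 UMIs in the libraries compared and classes with at least 40 cells in each. Because 3′ counts depend on the gene, levels were compared between cells and libraries and not between genes.

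After filtering, 8426 cells of the scratch-positive library, 7590 of the scratch-negative library and 6179 of the control library remained, with median UMIs per cell of 36438, 11262 and 8864. The scratch-positive library held the most UMIs, 395654008 in all, against 167623741 in the scratch-negative library and 100089008 in the control library. Its tumour cells, counted below, held 249925669 UMIs. Median UMIs per cell did not rank the libraries alike in every class. In scratch-positive, scratch-negative and control cells they were 8448, 10015 and 8648 in neutrophils, and 19279, 14644 and 9685 in monocytes/macrophages. Few cell barcodes were shared between libraries, 30 between scratch-positive and scratch-negative, 24 between scratch-positive and control, and 16 between scratch-negative and control. Cells were clustered without the 8 genes and without 25 related matricellular genes, and classes were named from marker genes, so each class name means cells that resemble that type. Fibroblasts numbered 428, 570 and 54 cells in the scratch-positive, scratch-negative and control libraries. Osteoblast-lineage cells numbered 15, 61 and 61, and chondrocyte-like cells were nearly confined to the control library, with 1, 0 and 71. Tumour cells, named from epithelial markers, numbered 3785 and 208 in the scratch-positive and scratch-negative libraries, with none in the control library. Monocytes/macrophages numbered 915, 705 and 381, osteoclast-like cells 872, 84 and 28, and neutrophils 1598, 4503 and 4531. B, T and NK cells together (142, 374 and 510 lymphoid cells) served to show how many UMIs free RNA can give in cells not known to make matrix.

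The promoters of 4 of the genes are shown first. They are the 150 bases before the annotated start, from RefSeq on build GRCm38.p6, read 5′ to 3′ on the gene's strand. The table lists 2 starts each for Postn and Tnc, and the one nearest the GENCODE gene start is shown; the other window of each held no TATAAA match. Postn and Tnc are shown because they moved in opposite directions over the control in the whole fibroblast class, though not within the cluster that holds the control cells, Thbs2 because its level followed that of Postn most closely, and Thbs4 because 1 group of fibroblasts nearly lacked it. Capitals mark the TATA box letters TATAAA or their reverse complement. Only these exact letters were searched, and the other Tnc window holds the similar letters tatataag near its end, which they do not match.
Postn, chr3:54360957-54361106, plus strand: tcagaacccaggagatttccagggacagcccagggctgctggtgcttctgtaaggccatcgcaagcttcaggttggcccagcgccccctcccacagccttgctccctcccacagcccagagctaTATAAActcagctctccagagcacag
Tnc, chr4:64047016-64047165, minus strand: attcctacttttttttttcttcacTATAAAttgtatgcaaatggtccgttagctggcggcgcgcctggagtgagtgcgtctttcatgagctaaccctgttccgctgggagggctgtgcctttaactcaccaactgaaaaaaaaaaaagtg
Thbs2, chr17:14694263-14694412, minus strand: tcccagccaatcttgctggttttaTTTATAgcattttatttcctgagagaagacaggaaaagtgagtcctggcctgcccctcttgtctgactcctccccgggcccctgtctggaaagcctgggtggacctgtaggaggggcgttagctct
Thbs4, chr13:92794819-92794968, minus strand: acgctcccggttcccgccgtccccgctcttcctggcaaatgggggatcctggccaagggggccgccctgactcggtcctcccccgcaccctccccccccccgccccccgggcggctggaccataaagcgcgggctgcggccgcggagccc
The Postn match lay 26 to 21 bases before the start, and the matches of Tnc and Thbs2 lay 126 to 121 bases before it, that of Thbs2 on the opposite strand. TATAAA occurred on either strand in 7.57% of 32851 promoters of the same length. The letters TGANTCA (AP-1), GGAATG (TEAD) and TGTGGT (RUNX) were searched on both strands as well, are held by 4.24%, 7.59% and 8.40% of those promoters, and were in none of these 4 windows. No match overlapped another, and a match describes letters and not a working site. Of the 8 genes, 6 had an entry in the promoter table, and Thbs1 and Fn1 did not. The windows of Sparc and Tgfbi, which are not shown, held no TATAAA match.

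The genes fell into 3 patterns over the classes. UMIs of Postn came almost entirely from fibroblasts, which gave 94.3% of them in the scratch-positive library, 97.4% in the scratch-negative library and 92.0% in the control library. Fibroblasts were 5.08%, 7.51% and 0.874% of the cells kept in those libraries. Sparc and Tnc were shared by fibroblasts and bone cells. Fibroblasts gave 57.5%, 83.7% and 40.1% of Sparc UMIs in the scratch-positive, scratch-negative and control libraries, and osteoblast-lineage cells gave 2.66%, 13.2% and 51.0%. For Tnc, the fibroblasts gave 80.3%, 90.9% and 24.9%, and the osteoblast-lineage cells 0.187%, 3.85% and 72.7%. Tumour cells added 37.6% of the Sparc UMIs and 17.5% of the Tnc UMIs of the scratch-positive library, against 1.42% and 2.88% in the scratch-negative library. These shares follow the number of cells and their UMIs as well as the level per cell.

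Thbs1, Tgfbi and Fn1 had large shares in blood-derived cells. Neutrophils gave 20.3% of Thbs1 UMIs in the scratch-positive library, 57.2% in the scratch-negative library and 86.7% in the control library, while fibroblasts gave 5.51%, 9.71% and 0.123%. Monocytes/macrophages gave 57.4%, 53.7% and 29.4% of the Tgfbi UMIs. Fn1 had no single main source: fibroblasts gave 29.1%, 79.5% and 14.5%, monocytes/macrophages 21.3%, 12.9% and 73.2%, and tumour cells 46.4%, 4.95% and 0%.

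**Figure D1:**
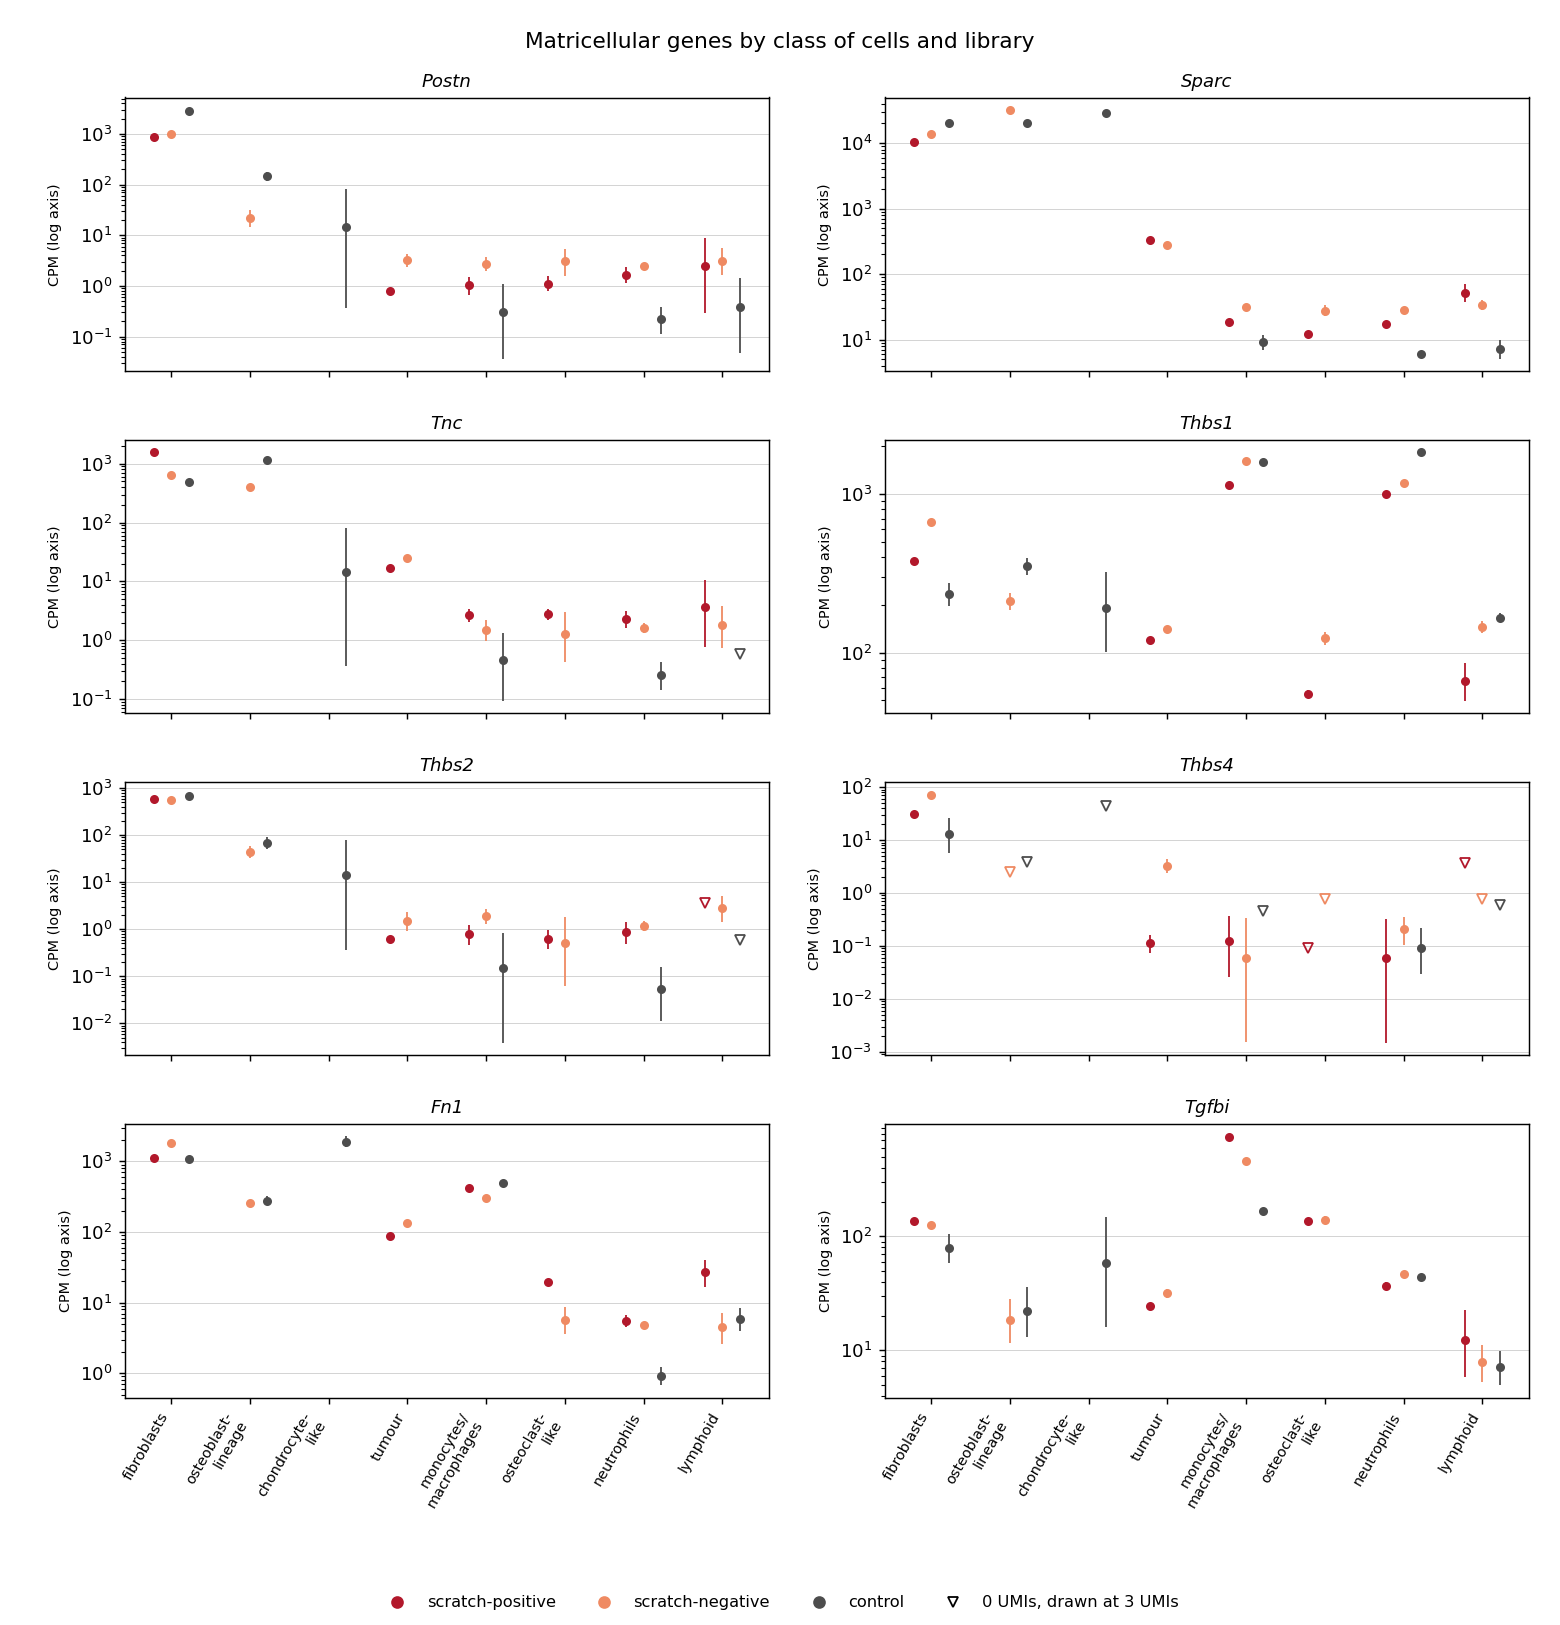
CPM of each of the 8 genes (log axis) in each cell class of the scratch-positive, scratch-negative and control libraries, 1 library per group and groups of at least 40 cells, with exact 95% counting intervals; an open triangle marks 0 UMIs, drawn at the level of 3 UMIs. Postn, Thbs2 and Thbs4 stand above the lymphoid level mainly in fibroblasts, while Thbs1 and Tgfbi are high in monocytes/macrophages.

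**Figure D2:**
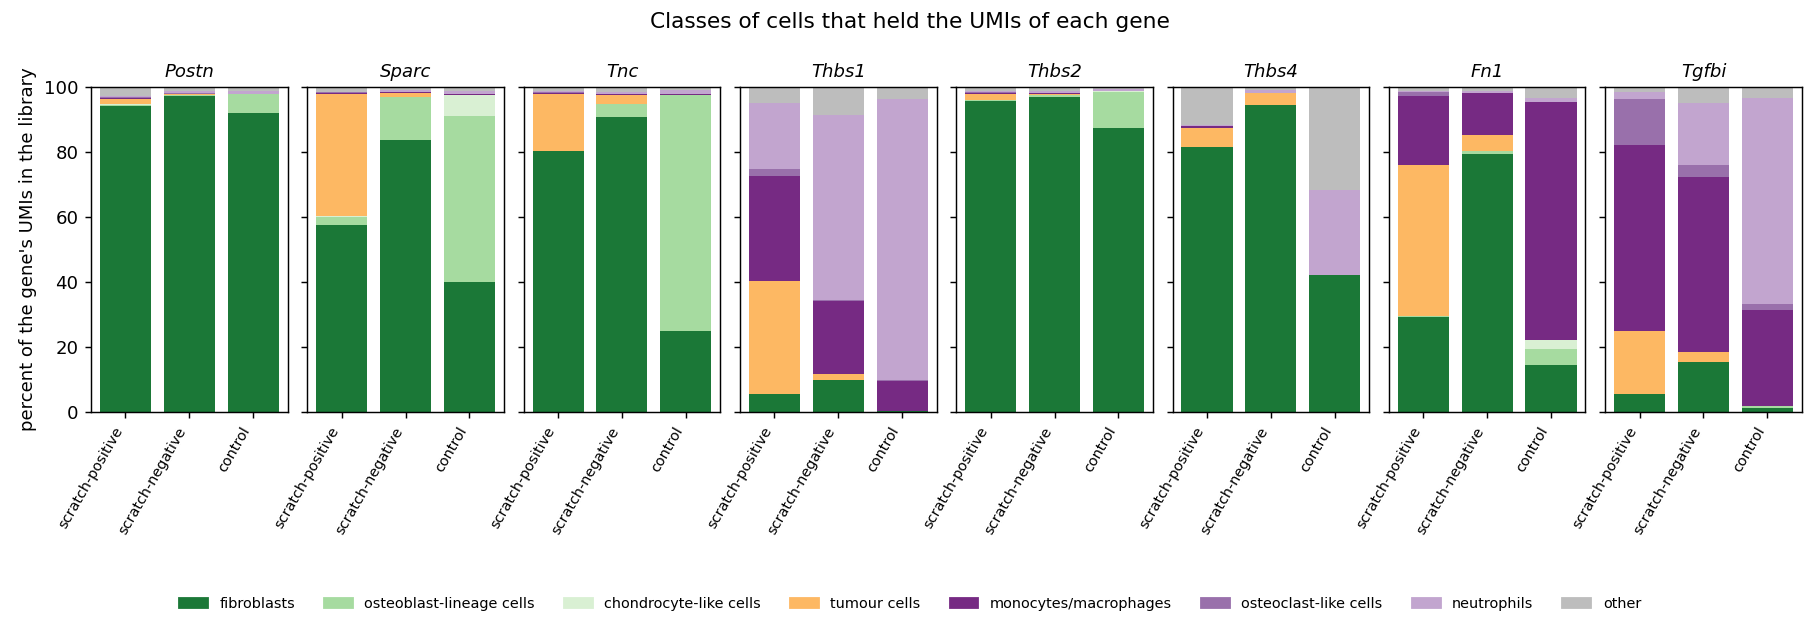
Percent of each gene's UMIs that came from each cell class, 1 bar per library, scratch-positive, scratch-negative and control. The Postn bars are nearly all fibroblast (94.3%, 97.4% and 92.0%), and the Thbs1 bars carry a neutrophil share of 20.3%, 57.2% and 86.7%.

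The level of the 8 genes in the same cell class was compared between the tumour groups first, which sets invasive against pre-invasive tissue. In fibroblasts, Tnc was higher and Thbs4 lower in the scratch-positive library than in the scratch-negative library, and the other 6 genes differed by less than 2-fold. Thus 1 gene was called higher and 1 lower of 8 tested, against 15.3% of 14095 genes called in these cells, 4.25% higher and 11.0% lower. The median log2 ratio of the 8 genes was -0.26, beside 0.00 for all genes.

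Tnc stood at 1557 CPM in scratch-positive fibroblasts, 651 CPM in scratch-negative fibroblasts and 495 CPM in control fibroblasts. It was highest in the scratch-positive library, where 86.7% of fibroblasts held a Tnc UMI, against 76.3% in the scratch-negative library. The scratch-positive level was 2.39 times the scratch-negative level (95% interval 2.34 to 2.45) and 3.15 times that of the control (2.81 to 3.54). The scratch-negative level was 1.32 times that of the control (1.17 to 1.48), which was not called.

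Thbs4, whose product is a matrix thrombospondin of tendon and muscle, stood at 31.7 CPM in scratch-positive fibroblasts, 69.7 CPM in scratch-negative fibroblasts and 13.1 CPM in control fibroblasts. The scratch-negative library was thus the highest, although UMIs were found in few cells of any library, 8.64%, 19.6% and 9.26%. Scratch-positive fibroblasts were 2.20-fold lower than scratch-negative fibroblasts (1.96 to 2.47). The ratio to the control was 2.42 (1.21 to 5.64) in scratch-positive and 5.32 (2.69 to 12.4) in scratch-negative fibroblasts, but the control value rests on 8 UMIs, 3 of them in 1 cell, and was 8.24 CPM without that cell.

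Thbs1 was 380.2 CPM in scratch-positive, 668 CPM in scratch-negative and 233 CPM in control fibroblasts, and Fn1 was 1123, 1803 and 1063 CPM. Both were highest in the scratch-negative library. Scratch-positive levels were 1.76-fold lower for Thbs1 (1.70 to 1.82) and 1.61-fold lower for Fn1 (1.57 to 1.64) than scratch-negative levels, short of the 2-fold limit. Sparc was 10370.5 CPM in scratch-positive fibroblasts, 13561 CPM in scratch-negative and 20110.1 CPM in control fibroblasts, 1.31-fold lower (1.30 to 1.32) between the tumour libraries.

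Thbs2, a thrombospondin of connective tissue, was nearly level, with 583 CPM in scratch-positive, 554 CPM in scratch-negative and 683 CPM in control fibroblasts. Its ratio between the tumour libraries was 1.05 (1.02 to 1.08). Tgfbi was low in fibroblasts, with 136, 125 and 78.6 CPM, and its ratio between the tumour libraries was 1.09 (1.02 to 1.16).

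Postn, encoding periostin, was lower in the fibroblasts of both tumour libraries than in those of the control. It was 889 CPM in scratch-positive fibroblasts and 978 CPM in scratch-negative fibroblasts, against 2838 CPM in control fibroblasts. The tumour libraries lay close together, a ratio of 0.909 (0.887 to 0.931), and both lay far below the control. Scratch-positive fibroblasts were 3.19-fold lower (3.03 to 3.36) and scratch-negative fibroblasts 2.90-fold lower (2.76 to 3.05) than control fibroblasts, and both ratios share the control library.

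The share of fibroblasts with a Postn UMI ran the other way from the level: 92.3% in the scratch-positive library and 88.1% in the scratch-negative library, against 63.0% in the control library. Median UMIs per fibroblast were 28356, 28857 and 10924, so the control cells were the shallowest. Thinned to 5000 UMIs per cell, with shallower cells left out, the shares were 83.5% of 418, 81.6% of 553 and 60.4% of 48 cells. High Postn in the control came from part of the cells: 20 of 54 control fibroblasts held no Postn UMI, and 1 cell held 14.7% of all Postn UMIs. Without that cell the control level was 2467 CPM, still above both tumour libraries.

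Relative to the control, Postn was the 1 gene called lower in scratch-negative fibroblasts, and Thbs1 (2.87 times, 2.43 to 3.41) and Thbs4 were called higher, 3 of 8 against 18.1% of 13468 genes (5.21% higher and 12.9% lower). In scratch-positive fibroblasts Postn was again the 1 gene called lower, and Tnc and Thbs4 were called higher, 3 of 8 against 24.8% of 12699 genes (7.86% higher and 16.9% lower). The control Thbs1 value rests on 142 UMIs, 26.8% of them in 1 cell, and was 179.5 CPM without it, close to the 166 CPM of control lymphoid cells. Sparc was 1.94-fold lower in scratch-positive (1.90 to 1.98) and 1.48-fold lower in scratch-negative (1.46 to 1.51) than in control fibroblasts. Fn1 was 1.06 times the control in scratch-positive (0.976 to 1.14) and 1.70 times in scratch-negative fibroblasts (1.57 to 1.84).

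The 8 genes had a median log2 ratio of 0.39 in scratch-positive and 0.52 in scratch-negative fibroblasts over the control, beside -0.25 and -0.28 for all genes tested. Median-of-ratios scaling moved all genes by about that much, and with it Postn stayed lower, at 0.395 and 0.430 times the control, and no gene changed direction except Thbs2, at 1.08 and 1.01 times. Markers of neutrophils were present in the fibroblasts of every library, 11 of 11 detected, and summed to 4617 CPM in scratch-positive, 33893 CPM in scratch-negative and 33546 CPM in control fibroblasts. Epithelial markers summed to 144, 61.4 and 19.7 CPM, with 2, 3 and 11 of 14 at 0. The part of these other cells' RNA in the ratios was not tested.

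**Figure D3:**
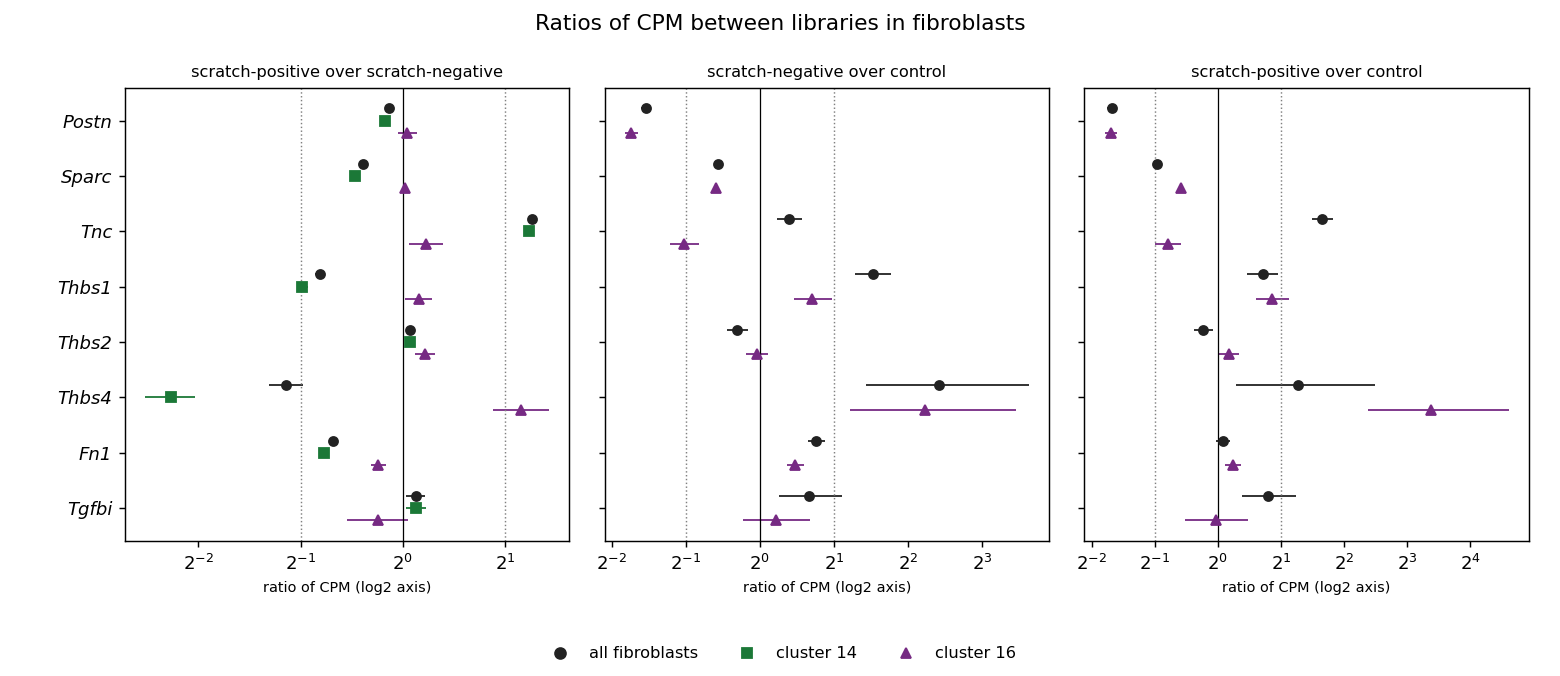
Ratio of the CPM of each of the 8 genes between libraries (log2 axis, dotted lines at 2-fold) in all fibroblasts, in cluster 14 (led by Tagln and Rarres2) and in cluster 16 (led by Mgp and Sfrp2), with exact 95% counting intervals, 1 library per group. In all fibroblasts Postn lies near 1 between the tumour libraries and at 0.313 (scratch-positive) and 0.345 (scratch-negative) over the control, while Tnc lies above 1 in all fibroblasts and below 1 in cluster 16 over the control.

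The fibroblasts of the 3 libraries were not the same mixture, so the genes were read within clusters as well. A cluster led by Tagln, Crabp1, Rarres2 and Lox held 324 scratch-positive and 360 scratch-negative cells and no control cell. A cluster led by Mgp, Sfrp2, Ptn and Igfbp5 held 104, 210 and all 54 of the control fibroblasts. Both carried most of the fibroblast markers, 14 and 15 of 16. The control comparison for the whole class therefore sets the Sfrp2-led cluster of the control against a mixture of both clusters.

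Within the Sfrp2-led cluster, Postn kept its difference: 879 CPM in scratch-positive and 853 CPM in scratch-negative cells, against 2838 CPM in control cells, 3.23-fold and 3.33-fold lower. Tnc did not: it was 286 CPM in scratch-positive and 244 CPM in scratch-negative cells, below the 495 CPM of control cells, so the direction over the control turned, to ratios of 0.578 and 0.494. Thbs4 also turned between the tumour libraries, with 136 CPM in scratch-positive and 61.3 CPM in scratch-negative cells, a ratio of 2.22. Thbs1 was 424 CPM in scratch-positive, 380.0 CPM in scratch-negative and 233 CPM in control cells, and none of its ratios there reached 2-fold.

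At a finer resolution, the higher Tnc and lower Thbs4 of scratch-positive fibroblasts went with 1 group of cells. This group was led by Gzmd, Gzme, Tagln and Acta2, the last 2 being contractile genes of myofibroblasts, and held 263 scratch-positive cells but 6 scratch-negative cells and no control cell. Its Tnc level was 2006 CPM in the scratch-positive library, with a median per cell of 18.02 UMIs per 10000 and only 1 of 263 cells at 0. Tnc was itself among the leading genes of that group, so its height there describes the group and tests nothing. Thbs4 gave 1 UMI in those 263 cells, 0.114 CPM.

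Outside that group, neither difference was seen in the same form. In the group led by Rarres2, Lox and Saa3 (45 scratch-positive and 345 scratch-negative cells), Tnc was 844 CPM in scratch-positive and 730.1 CPM in scratch-negative cells, a ratio of 1.16 (1.09 to 1.23). In the group led by Sfrp2, Ptn and Mgp (93, 127 and 34 cells) it was 295 CPM in scratch-positive, 405 CPM in scratch-negative and 746 CPM in control cells. Thbs4 was 110 CPM in scratch-positive and 74.7 CPM in scratch-negative cells of the Rarres2-led group. In the Sfrp2-led group it was 102 CPM in scratch-positive and 40.8 CPM in scratch-negative cells, a ratio of 2.51 (1.96 to 3.23). The lower Thbs1 and Fn1 of scratch-positive fibroblasts were not kept at their size either. The Thbs1 ratio between the tumour libraries was 0.981 (0.920 to 1.05) in the Rarres2-led and 1.01 (0.916 to 1.12) in the Sfrp2-led group. That of Fn1 was 0.815 (0.780 to 0.851) and 1.14 (1.07 to 1.20).

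The group led by Clec3b, Dpt and Pi16, genes of adventitial fibroblasts, was small, with 19 scratch-positive, 72 scratch-negative and 14 control cells. It had almost no Tnc, 0, 10.7 and 0 CPM, but had Thbs4 at 179 CPM in scratch-positive and 111 CPM in scratch-negative cells, the highest level of the 4 groups in each tumour library, on 28 and 114 UMIs. Its Fn1 was 1204 CPM in scratch-positive, 2663 CPM in scratch-negative and 3424 CPM in control cells, above the Sfrp2-led group of the same library in the scratch-negative and control libraries. Postn was low there, 205 CPM in scratch-positive, 461 CPM in scratch-negative and 631 CPM in control cells.

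High Postn in the control belonged to the Sfrp2-led group, at 4094 CPM, against 869 CPM in scratch-positive and 1134 CPM in scratch-negative cells of the same group. Per cell, its median there was 22.3 UMIs per 10000 in the control, with 10 of 34 control cells at 0. Sparc followed in part: 13743 CPM in scratch-positive, 14871 CPM in scratch-negative and 25996 CPM in control cells. Thbs2 did not, with 869, 953 and 925 CPM in scratch-positive, scratch-negative and control cells of that group.

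**Figure D4:**
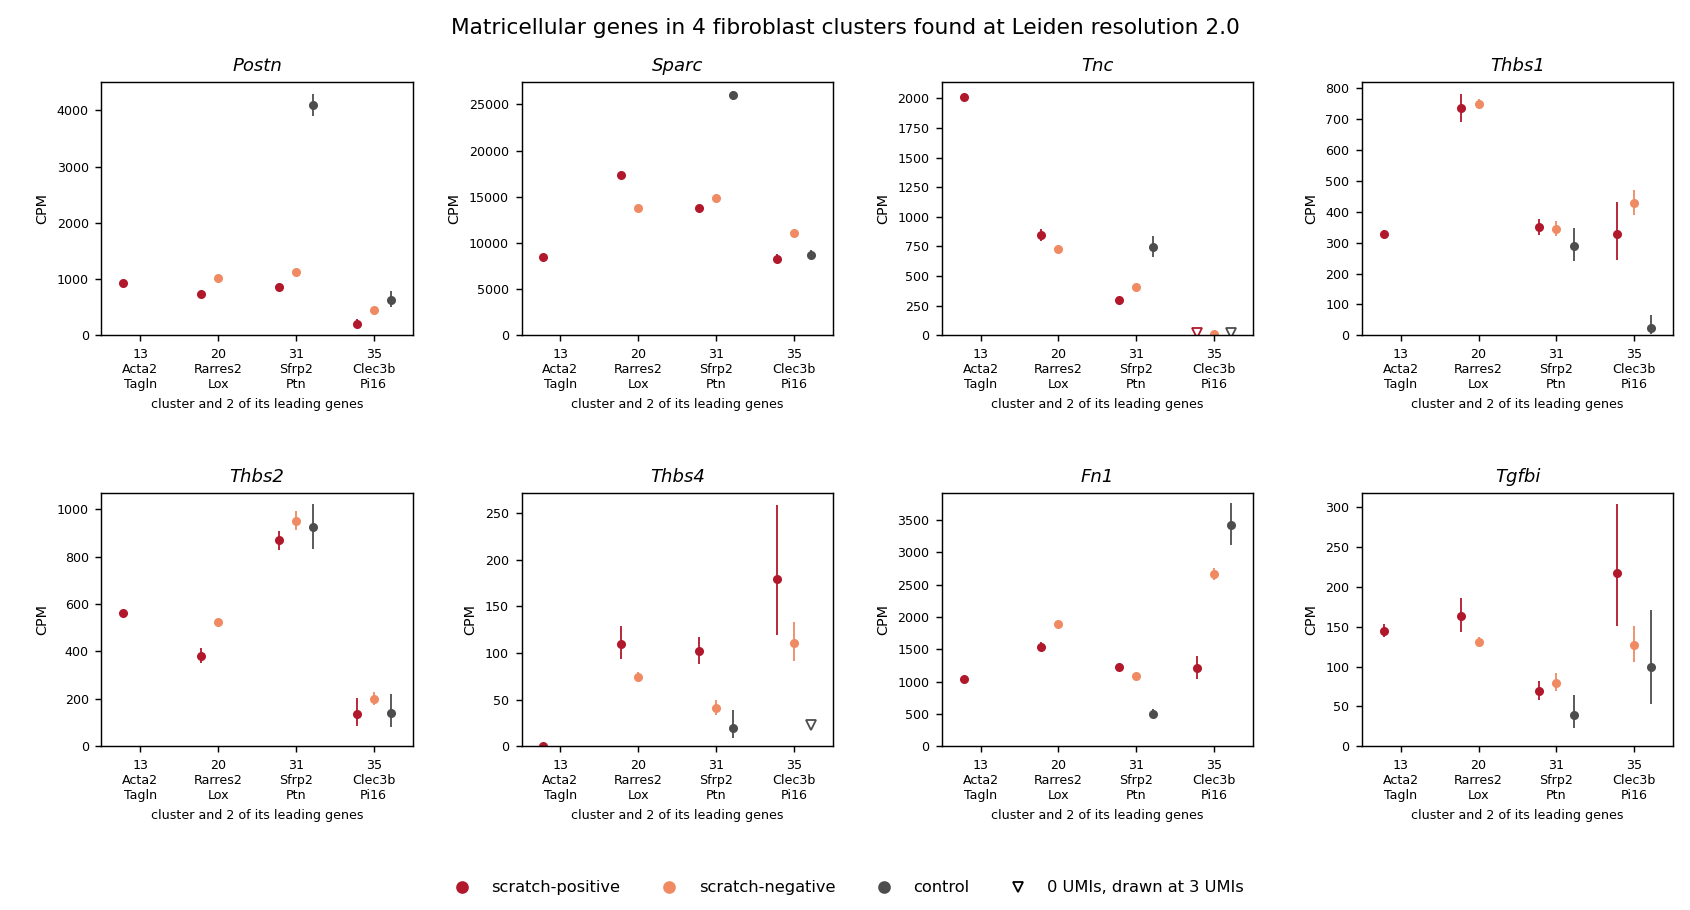
CPM of the 8 genes (linear axes) in the 4 fibroblast groups found at the finer resolution, named by 2 of their leading genes, by library, with exact 95% counting intervals; groups under 14 cells are not drawn, and an open triangle marks 0 UMIs, drawn at the level of 3 UMIs. Tnc is highest in the Acta2- and Tagln-led group of the scratch-positive library (2006 CPM), where Thbs4 is nearly absent (0.114 CPM), and Postn is highest in the Sfrp2-led group of the control (4094 CPM).

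Genes of 4 lists that belong with the 8 were read in the same fibroblasts. Among the other matricellular genes, 3 were called higher and 6 lower of 21 tested between scratch-positive and scratch-negative fibroblasts. The shares over all genes were 4.25% higher and 11.0% lower. Wisp1, a CCN family protein, was 230.05 CPM in scratch-positive and 105 CPM in scratch-negative cells, a ratio of 2.20, and Fbln5, a fibulin of elastic fibres, was 108 and 45.7 CPM, a ratio of 2.36. Tnxb, the tenascin of loose connective tissue, went the other way from Tnc, with 10.5 CPM in scratch-positive and 64.9 CPM in scratch-negative cells, 6.20-fold lower.

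Relative to the control, 2 of the 21 other matricellular genes were called higher and 9 lower in scratch-negative fibroblasts, and 5 and 11 in scratch-positive fibroblasts. Over all genes, 5.21% were called higher and 12.9% lower in scratch-negative fibroblasts, and 7.86% and 16.9% in scratch-positive fibroblasts. The median log2 ratio of the other matricellular genes was -0.55 in scratch-negative and -1.18 in scratch-positive fibroblasts, beside -0.28 and -0.25 for all genes. Spp1 (osteopontin) was 1171 CPM in scratch-positive and 877 CPM in scratch-negative cells, against 314 CPM in the control, ratios of 3.72 and 2.79. Fbln2 was 756 and 1064 CPM, against 149 CPM. Tnn (tenascin N, also called tenascin W, a protein of bone and periosteum) was 211 CPM in scratch-positive and 163 CPM in scratch-negative cells, against 1225 CPM in control cells, and so had its high value in the control as Postn did.

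Among 22 TGF-beta ligands, receptors and feedback genes, 3 were called higher and 4 lower between scratch-positive and scratch-negative fibroblasts. The shares over all genes were 4.25% and 11.0%. The 3 higher genes were ligands or ligand subunits: Tgfb2 at 163 CPM in scratch-positive and 43.7 CPM in scratch-negative cells, Tgfb3 at 93.3 and 44.0 CPM, and Inhba at 203 and 97.7 CPM. The lower genes included Ltbp2, a latent TGF-beta binding protein relative, at 67.3 CPM in scratch-positive and 201 CPM in scratch-negative cells. Over the control, 6 genes of the list were called higher and 4 lower in scratch-positive fibroblasts, and 7 and 6 in scratch-negative fibroblasts. The shares over all genes were 7.86% and 16.9% in scratch-positive, and 5.21% and 12.9% in scratch-negative fibroblasts.

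Among 20 matrix assembly partners, 2 were called higher and 3 lower between scratch-positive and scratch-negative fibroblasts, against 4.25% and 11.0% of all genes. Col6a3, a chain of type VI collagen, was 1085 CPM in scratch-positive and 460.5 CPM in scratch-negative cells, and Fbn2, a fibrillin, was 206 and 58.4 CPM. Dcn (decorin, a small proteoglycan that binds collagen) was 874 CPM in scratch-positive, 2649 CPM in scratch-negative and 7924 CPM in control cells, lowest in the scratch-positive library. Lox, which crosslinks collagen, was 486 CPM in scratch-positive, 1402 CPM in scratch-negative and 105 CPM in control cells, and Col3a1 in scratch-positive cells was 0.499 times its scratch-negative level. Over the control, 7 partners were called higher and 1 lower in scratch-positive fibroblasts, and 6 and 1 in scratch-negative fibroblasts. Among all genes these shares were 7.86% and 16.9%, and 5.21% and 12.9%.

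Receptors for the 8 proteins were mostly at low counts in fibroblasts. Of 22 tested, 3 were called higher and 4 lower between scratch-positive and scratch-negative cells, against 4.25% and 11.0% of all genes. Itga5, the fibronectin receptor subunit, was 69.2 CPM in scratch-positive and 80.8 CPM in scratch-negative cells, against 18.02 CPM in the control, where it rests on 11 UMIs. Itgb5, a subunit of a receptor that binds periostin, was 132 and 120 CPM, against 552 CPM in control cells. Over the control, 3 receptors were called higher and 4 lower in scratch-positive cells, and 5 and 4 in scratch-negative cells, of 21 tested in each. Among all genes these shares were 7.86% and 16.9%, and 5.21% and 12.9%.

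In osteoblast-lineage cells, which build bone, Postn and Tnc were lower in the scratch-negative library than in the control, and Sparc was higher but not by 2-fold. These cells had Bglap, encoding osteocalcin, at 53643 CPM in scratch-negative and 31679 CPM in control cells. Other markers of the class did not all run that way. In scratch-negative and control cells, Ifitm5 was 481 and 238 CPM and Col22a1 185 and 139 CPM. Ibsp was 2002 and 5409 CPM, and Alpl 135 and 272 CPM, so the mixture of cells in the class may differ. Cxcl12 and Adipoq, genes of marrow stroma, were also among the leading genes. Tnc was 409 CPM in scratch-negative cells, against 1153 CPM in control cells, 2.82-fold lower (2.52 to 3.15). Postn was 22.03 CPM in scratch-negative cells, against 145 CPM in control cells, 6.60-fold lower (4.27 to 10.5). In fibroblasts of the same libraries, the Tnc ratio was 1.32 over the whole class but 0.494 within the Sfrp2-led cluster, which holds all the control fibroblasts. Of 7 genes tested, 2 were called lower and none higher, against 10.9% of 9549 genes called (2.54% higher and 8.39% lower).

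Sparc in osteoblast-lineage cells was 31820 CPM in the scratch-negative library, against 20421 CPM in the control, a ratio of 1.56 (1.53 to 1.59). In fibroblasts it ran the other way. Thbs1 was 211 CPM in scratch-negative cells, against 349.7 CPM in control cells, Fn1 254 against 279 CPM, and Thbs2 44.9 against 69.4 CPM, none of them called. The median log2 ratio of the 7 genes was -0.63, beside -0.27 for all genes. Neutrophil markers summed to 58196 CPM in scratch-negative and 22111 CPM in control cells of this class, all 11 detected, and their part in the ratios was not tested.

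The scratch-positive library held 15 osteoblast-lineage cells, too few to be compared. They gave 22486 CPM of Sparc, 170 CPM of Tnc and 113 CPM of Postn. The 71 chondrocyte-like cells of the control, a class that both tumour libraries nearly lacked, had 29031 CPM of Sparc and 1911 CPM of Fn1. They were shallow, with a median of 949 UMIs per cell, and the values rest on 1990 UMIs of Sparc and 131 of Fn1. No Thbs4 UMI was found in the osteoblast-lineage cells of the scratch-negative and control libraries.

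In monocytes/macrophages, Tgfbi was higher in both tumour libraries than in the control. It was 746 CPM in scratch-positive, 461 CPM in scratch-negative and 168 CPM in control cells, highest in the scratch-positive library and lowest in the control. Cells with a Tgfbi UMI made up 94.6%, 88.8% and 83.5%, while 3.52%, 5.35% and 4.12% of lymphoid cells held one, with median UMIs of 19279, 14644 and 9685 per monocyte/macrophage and 3214, 5679 and 5273 per lymphoid cell. Over the control, the level was 4.45 times as high in scratch-positive (4.18 to 4.73) and 2.75 times as high in scratch-negative cells (2.58 to 2.93), and both were called. The ratio of scratch-positive to scratch-negative was 1.62 (1.58 to 1.66), not called.

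The size of that difference depended on which cells were compared. A cluster led by C1qa, H2-Eb1 and Arg1, genes of macrophages, held 857 scratch-positive, 559 scratch-negative and 82 control cells, with 752, 467 and 68.3 CPM of Tgfbi. A cluster led by F13a1 and Ccr2, genes of circulating monocytes, held 58, 146 and 299 cells, with 468, 405 and 269 CPM. In the monocyte cluster the order was the same, but the ratios over the control were 1.74 in scratch-positive and 1.504 in scratch-negative cells, and neither was called.

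At the finer resolution, 47 of the 82 control cells of the macrophage cluster grouped with neutrophils instead. The finer macrophage group held 687 scratch-positive, 448 scratch-negative and 37 control cells, with 804 CPM of Tgfbi in scratch-positive, 559.8 CPM in scratch-negative and 198 CPM in control cells. The order of the libraries was again the same. The finer monocyte group (58, 138 and 276 cells) had 502, 463 and 307 CPM. Neutrophil markers in the whole class summed to 134268 CPM in scratch-positive, 282588 CPM in scratch-negative and 247420 CPM in control cells, and their part in the class values was not tested.

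Fn1 was higher in monocytes than in macrophages of the same library, in each of the 3 libraries and at both resolutions. It was 422 CPM in scratch-positive, 306 CPM in scratch-negative and 497 CPM in control cells of the whole class, 1.62-fold lower in scratch-negative cells than in the control and not called. In the monocyte cluster it was 740.2, 749 and 959 CPM, and in the macrophage cluster 414, 259 and 43.5 CPM. In the finer groups the macrophage values were 463 CPM in scratch-positive, 316 CPM in scratch-negative and 175 CPM in control cells, and the monocyte values were 756, 879 and 1136 CPM. In the macrophage group it was thus highest in the scratch-positive library, and in the monocyte group highest in the control.

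Thbs1 in monocytes/macrophages was 1148 CPM in scratch-positive, 1609 CPM in scratch-negative and 1600.3 CPM in control cells. The scratch-positive level was 1.40-fold lower than the scratch-negative level (1.38 to 1.43), not called. In the finer groups, the scratch-positive level was the lowest in macrophages, with 1219.6, 1878 and 1924 CPM in scratch-positive, scratch-negative and control cells, but the highest in monocytes, with 2461, 2239 and 2327 CPM.

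The matrix genes made mainly by fibroblasts were near the lymphoid level in monocytes/macrophages and are read there as background. Postn was 1.03 CPM in scratch-positive, 2.75 CPM in scratch-negative and 0.303 CPM in control monocytes/macrophages, against 2.44, 3.14 and 0.393 CPM in lymphoid cells. Sparc was 18.8, 31.5 and 9.08 CPM, against 52.5, 34.04 and 7.28 CPM in lymphoid cells. Calls in this class included such genes: between scratch-positive and scratch-negative cells 2 of 7 were called lower (Postn and Thbs2) and none higher, against 19.7% of 12948 genes (14.7% higher and 5.01% lower). Over the control, 5 of 7 were called higher in scratch-negative cells, against 8.87% of 11919 genes (5.77% higher and 3.10% lower), and 3 of 7 in scratch-positive cells, against 22.3% of 12582 genes (15.9% higher and 6.43% lower). Of these, Tgfbi alone stood well above the lymphoid level.

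Among related genes of monocytes/macrophages, Spp1 was 1306 CPM in scratch-positive, 188 CPM in scratch-negative and 49.8 CPM in control cells, ratios of 6.94 between the tumour libraries and 26.2 for scratch-positive over control. Stab1, a scavenger receptor that takes up SPARC, was 44.4 CPM in scratch-positive, 13.3 CPM in scratch-negative and 3.48 CPM in control cells, in the same order as Tgfbi. Sdc4, a syndecan that binds fibronectin, was 210 and 111 CPM, against 15.7 CPM in control cells. Itga4, an integrin subunit that also binds fibronectin, ran the other way, with 51.2 CPM in scratch-positive, 82.3 CPM in scratch-negative and 167 CPM in control cells. Between the tumour libraries 5 other matricellular genes were called higher and none lower of 11, and 7 receptors higher and 2 lower of 21. Over the control, 4 and 1 of 10 other matricellular genes and 8 and 5 of 21 receptors were called higher and lower in scratch-positive cells, and 5 and 1 of 7 and 4 and 2 of 19 in scratch-negative cells. Of all genes, 14.7% were called higher and 5.01% lower between the tumour libraries. The shares over the control were 15.9% and 6.43% in scratch-positive and 5.77% and 3.10% in scratch-negative cells.

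In neutrophils, the most abundant class of the scratch-negative and control libraries, Thbs1 stood well above the lymphoid level of 65.9, 146 and 166 CPM in the scratch-positive, scratch-negative and control libraries. It was 1006 CPM in scratch-positive, 1177 CPM in scratch-negative and 1830.2 CPM in control cells, lowest in the scratch-positive library. Against the control it was 1.82-fold lower in scratch-positive (1.79 to 1.85) and 1.55-fold lower in scratch-negative neutrophils (1.54 to 1.57), short of the call. The direction was the same in every neutrophil cluster large enough to compare: the ratio over the control was below 1 in 7 of 7 clusters for scratch-positive cells (0.402 to 0.820) and in 8 of 8 for scratch-negative cells (0.334 to 0.908). Between the tumour libraries it was below 1 in 3 of 7 (0.815 to 1.20). The clusters come from the same 3 libraries, so they are not independent repeats. In the cluster with the lowest ratio, the scratch-negative level of 129 CPM lay below the lymphoid 146 CPM. The lymphoid level was itself lower in both tumour libraries than in the control, and its part in the ratios was not tested.

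Thbs1 varied among neutrophil clusters far more than among libraries. It was 154 CPM in scratch-positive, 129 CPM in scratch-negative and 384 CPM in control cells of the lowest cluster, against 2978, 2890 and 3633 CPM in 1 of the highest. Tgfbi in neutrophils was 36.8 CPM in scratch-positive, 47.1 CPM in scratch-negative and 43.9 CPM in control cells, with no call. Over the control, 5 of 8 genes were called higher in scratch-negative neutrophils, against 6.08% of 12412 genes (3.93% higher and 2.15% lower), and 5 of 7 in scratch-positive neutrophils, against 13.5% of 11993 genes (8.62% higher and 4.88% lower). These 5 were Postn, Sparc, Tnc, Thbs2 and Fn1. The first 4 were at levels near those of lymphoid cells and are read as background. Fn1 was 5.51 CPM in scratch-positive, 4.75 CPM in scratch-negative and 0.917 CPM in control neutrophils, against 26.9, 4.45 and 5.90 CPM in lymphoid cells, or 10.5, 4.20 and 2.56 CPM without the top cell of each library. No neutrophil Fn1 level stood clearly above the lymphoid one, but the lymphoid levels did not differ between scratch-negative and control cells by as much. Between scratch-positive and scratch-negative neutrophils none of 8 was called, against 8.18% of 12079 genes (6.74% higher and 1.44% lower).

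**Figure D5:**
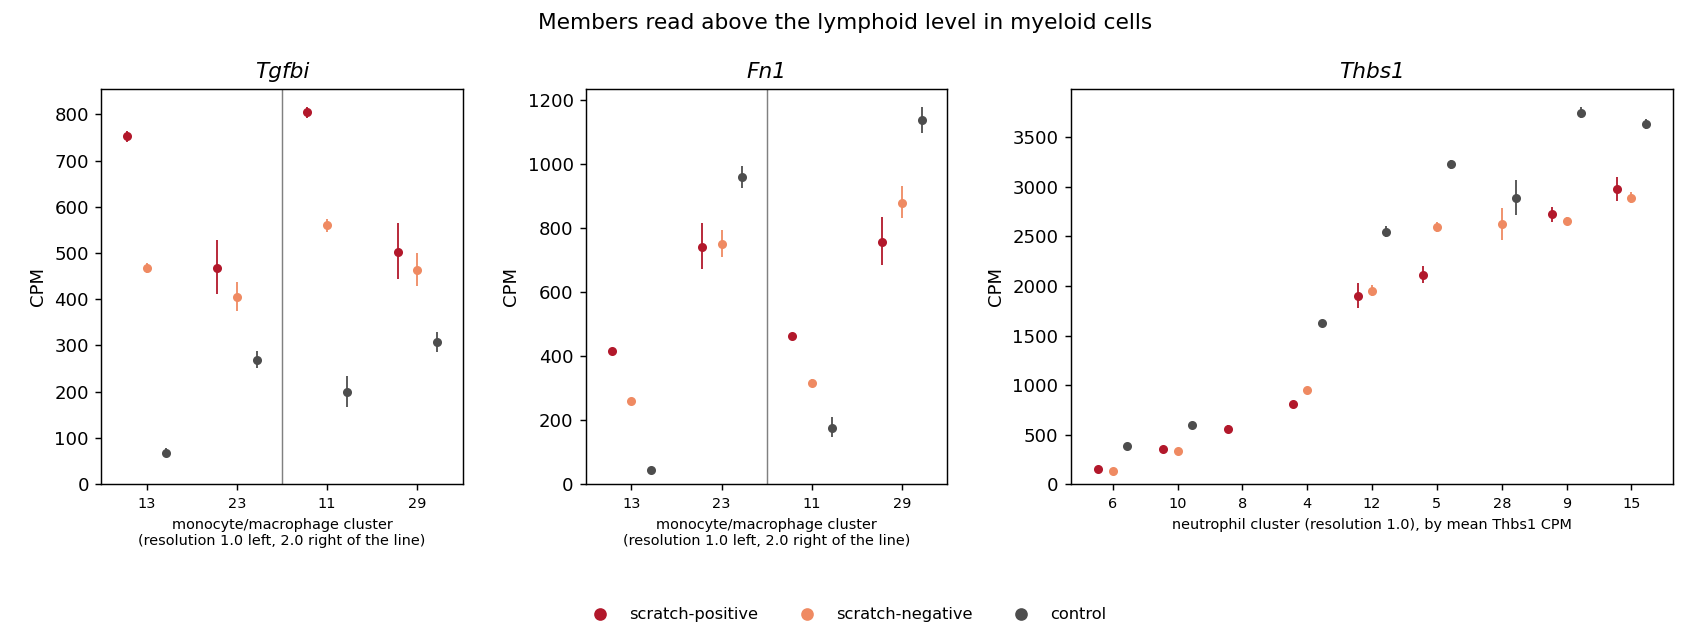
CPM of Tgfbi and Fn1 in macrophages (cluster 13, or 11 at the finer resolution) and monocytes (cluster 23, or 29), and of Thbs1 over neutrophil clusters ordered by level, by library, with exact 95% counting intervals. Tgfbi is highest in the scratch-positive library and lowest in the control in all 4 clusters drawn, and Thbs1 is higher in the control than in the tumour libraries in each neutrophil cluster that has control cells drawn.

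Osteoclast-like cells, the bone-resorbing cells of the monocyte lineage, were compared between the tumour libraries, since the control held 28. Thbs1 was 55.0 CPM in scratch-positive and 123 CPM in scratch-negative cells, 2.23-fold lower (2.02 to 2.47), but lymphoid cells held 65.9 and 146 CPM. Fn1 was 19.6 CPM in scratch-positive and 5.69 CPM in scratch-negative cells, a ratio of 3.45 (2.26 to 5.54), and lymphoid cells held 26.9 and 4.45 CPM, with 14 of the 22 scratch-positive lymphoid UMIs in 1 cell. The lymphoid Thbs1 levels thus differed by a similar fold in the same direction. The lymphoid Fn1 levels differed by more, but that rested on that cell: without the top cell of each library the lymphoid levels were 10.5 CPM in scratch-positive and 4.20 CPM in scratch-negative cells. Tgfbi was above that level, at 136 CPM in scratch-positive and 140.1 CPM in scratch-negative cells, a ratio of 0.974 (0.890 to 1.07), and at 69.1 CPM in the 28 control cells. Of 7 genes, 1 was called higher and 3 lower (Postn and Sparc being the others), against 9.80% of 12634 genes (3.52% higher and 6.28% lower). Postn was 1.11 CPM in scratch-positive and 3.10 CPM in scratch-negative cells, and Sparc 12.2 and 27.7 CPM. Both were below the lymphoid levels given above beside monocytes/macrophages. The 3 lower calls thus lay at levels no higher than those of lymphoid cells and are read as background.

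Tumour cells had counts of Sparc and Fn1 well above the lymphoid level, while Thbs1 was above it in the scratch-positive library only. Sparc was 337 CPM in scratch-positive and 276 CPM in scratch-negative tumour cells, a ratio of 1.22 (1.18 to 1.26), and a UMI was found in 97.3% and 91.3% of cells. Thinned to 5000 UMIs per cell, 74.0% and 65.0% of tumour cells held one, against 15.4% and 17.97% of lymphoid cells. Median UMIs were 63173 and 70815 per tumour cell and 3214 and 5679 per lymphoid cell. Sparc was thus above background in the tumour cells of both libraries.

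Fn1 was 89.0 CPM in scratch-positive and 135 CPM in scratch-negative tumour cells, 1.52-fold lower (1.45 to 1.59). Thbs1 was 119 and 142 CPM, 1.19-fold lower (1.14 to 1.24), where lymphoid cells held 65.9 and 146 CPM. Tnc was 16.9 CPM in scratch-positive and 24.7 CPM in scratch-negative tumour cells, 1.47-fold lower (1.31 to 1.63), in the opposite direction to the whole fibroblast class. Within the finer tumour group with the most scratch-negative cells (272 and 139 cells), Tnc was nearly level, at 16.8 and 18.1 CPM. Tgfbi was 24.6 and 31.7 CPM. None of these was called.

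The 3 genes called in tumour cells, all lower in the scratch-positive library, were at very low levels. Postn was 0.804 CPM in scratch-positive and 3.22 CPM in scratch-negative tumour cells, against 2.44 and 3.14 CPM in lymphoid cells, and 19 of its 47 scratch-negative UMIs were in 1 cell. Thbs4 was 0.112 and 3.29 CPM, and all 48 of its scratch-negative UMIs were in 1 cell. Thbs2 was 0.620 and 1.51 CPM. They made up 3 of 8 genes, against 10.9% of 14949 genes called (1.39% higher and 9.48% lower), and are read as background or as single cells. The median log2 ratio of the 8 genes was -0.58, beside -0.01 for all genes. Neutrophil markers summed to 1102 CPM in scratch-positive and 29566 CPM in scratch-negative tumour cells, with 11 of 11 detected, and fibroblast markers to 104 and 197 CPM, with 16 of 16 detected. Their part in the ratios was not tested.

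Among tumour cells of the scratch-positive library, Sparc, Fn1 and Thbs1 were all high in the same cluster. The cluster led by Krt17 and Clu had 464 CPM of Sparc, 153 CPM of Fn1 and 218 CPM of Thbs1. The largest of the other clusters had 249, 50.1 and 55.5 CPM, and a further one had 279, 52.9 and 63.1 CPM, so Thbs1 in both of these lay below the lymphoid level of 65.9 CPM. The 1 cluster with many cells of both tumour libraries (166 scratch-positive and 152 scratch-negative), led by interferon-induced genes and with Ptprc UMIs in 25.2% of its cells, had 333 and 272 CPM of Sparc, 94.3 and 102 CPM of Fn1, and 153 and 146 CPM of Thbs1 in scratch-positive and scratch-negative cells. Of the related lists in tumour cells, 1 other matricellular gene was called higher and 2 lower of 16, 2 receptors higher and 3 lower of 24, no TGF-beta gene higher and 2 lower of 22, and no matrix partner higher and 6 lower of 20. The shares over all genes in tumour cells were 1.39% higher and 9.48% lower. The 6 matrix partners included Col3a1, at 8.39 CPM in scratch-positive and 69.2 CPM in scratch-negative cells, Dcn at 0.788 and 12.4 CPM, and Lox at 0.400 and 5.83 CPM. Col3a1 and Dcn are also among the fibroblast markers summed above, and Col3a1 was the highest of those in scratch-negative tumour cells. The part of fibroblast RNA in these calls was not tested.

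The genes most like each of the 8 were sought by the correlation of log levels over 62 groups of cells, each a cluster in 1 library. The groups share 3 libraries and their depths, so these values describe the data and carry no test. Among genes other than the 8 themselves, Postn was most like Rarres2 (r = 0.95), followed by Fstl1, Mmp2, Fbn1 and Col3a1, and Thbs2 was most like Fstl1 (r = 0.97). Sparc followed Serpinh1, a collagen chaperone (r = 0.98), and Tnc followed Mxra8 (r = 0.96). Thbs4 followed Mfap4 (r = 0.91), with Col14a1, Aspn, Mfap5 and Sfrp2 next. Thbs1 was most like Lrrk2 (r = 0.91), Ndel1, Ets2, Cpeb2 and Tlr2, Fn1 most like Lrp1 (r = 0.93), and Tgfbi most like Psap (r = 0.84).

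Among the 8, Postn and Thbs2 were the closest pair (r = 0.97), and Sparc and Tnc followed (r = 0.93). Thbs1 stood apart from the fibroblast genes, with r between -0.19 and -0.05, but had r = 0.61 with Tgfbi. The 8 genes lie on 7 chromosomes, with only Thbs4 (chr13:92751590-92794818, minus strand) and Tgfbi (chr13:56609523-56639562, plus strand) on the same one, on build GRCm38. Postn is at chr3:54361109-54391037 (plus), Sparc at chr11:55394500-55423183 (minus), Tnc at chr4:63959785-64047015 (minus) and Thbs1 at chr2:118111876-118127133 (plus). Thbs2 is at chr17:14665500-14694235 (minus) and Fn1 at chr1:71585520-71653200 (minus).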

How the data were processed

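The authors deposited raw counts of UMIs for each gene and cell barcode, limited to called cells. The file headers name Cell Ranger 6.1.2 as the counting software, and the submitters' processing notes name mouse build mm10. Alignment settings are not given in the sources used here. Each group had 1 library, mapped by its group label.

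All later steps were run here with scanpy 1.11.5, numpy 2.4.6, scipy 1.17.1 and Python 3.11.15. Barcodes with under 500 genes (335 scratch-positive, 325 scratch-negative, 887 control) or over 10% mitochondrial UMIs (66, 41 and 26) were removed. Scrublet's own threshold marked 601, 1 and 4 doublets, too few in the last 2 libraries, so the highest scores were removed at 0.8% per 1000 barcodes (677, 561 and 398). The 8 genes and 25 other matricellular genes were left out of the 2000 variable genes. Cells were clustered on 30 components and 15 neighbours with Leiden at resolution 1.0, and at 2.0 for finer groups. A class needed at least 3 detected markers (a UMI in 20% of cells and 1.5 times the other clusters). A cluster of shallow cells, and clusters whose leading genes went against a name, were left unnamed (507, 521 and 29 cells).

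Because no replicate existed, tests that need replicates were not used. CPM carry exact Poisson intervals, shares Clopper-Pearson intervals, and ratios exact conditional binomial intervals, all at 95% and for counting error only; a count of 0 was bounded by 3 UMIs. The call rule was also run on counts simulated from the fibroblast sums of the scratch-negative library, with counting error only. That setting holds no spread between cells, animals or libraries, so it cannot show how the rule behaves under such spread. Shares were also taken after thinning each cell to 5000 UMIs. Of the related lists, up to 3 called genes with the highest and 3 with the lowest ratios per comparison were named. The members and lists were chosen with earlier results of these data known, as was the minimum of 40 cells. Promoters and positions came from RefSeq and GENCODE tables of GRCm38.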

Additional observations from a re-analysis of the deposited data

Results flagged for a closer look

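For 4 results, the same comparison between libraries went opposite ways in a pair of cell classes, each ratio with its whole interval on its side of 1 and at least 1 of them called at 2-fold, with the higher level of each class at least 20 CPM and over 3 times that of lymphoid cells in the same library. With 1 library per group, none of these differences between classes was tested. Tnc was 2.39 times as high in scratch-positive as in scratch-negative fibroblasts (1557 and 651 CPM), but 1.47-fold lower in scratch-positive than in scratch-negative tumour cells (16.9 and 24.7 CPM). Within finer fibroblast groups the Tnc ratio was 1.16 (Rarres2-led) and 0.730 (Sfrp2-led). Within the finer tumour group with the most scratch-negative cells (272 and 139 cells), Tnc was nearly level, at 16.8 and 18.1 CPM.

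In scratch-negative cells over the control, Tnc was 1.32 times as high in fibroblasts (651 and 495 CPM) but 2.82-fold lower in osteoblast-lineage cells (409 and 1153 CPM). Within the fibroblast cluster that holds the control cells, Tnc was lower in the scratch-negative library too, at 0.494 times the control.

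Thbs1 in scratch-negative cells over the control was 2.87 times as high in fibroblasts (668 and 233 CPM) but 1.55-fold lower in neutrophils (1177 and 1830.2 CPM). Leaving out the control fibroblast with 26.8% of that library's fibroblast Thbs1 UMIs gave 179.5 CPM in the control, where lymphoid cells held 166 CPM. Within the Sfrp2-led cluster the fibroblast ratio was 1.63.

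Tgfbi in scratch-positive cells over the control was 4.45 times as high in monocytes/macrophages (746 and 168 CPM), but its ratio was 0.839 in neutrophils (36.8 and 43.9 CPM), the smallest difference of these pairs.

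Other pairs went opposite ways with neither ratio called, among them the following. Sparc in scratch-negative cells over the control was 1.56 times as high in osteoblast-lineage cells but 1.48-fold lower in fibroblasts. Fn1 in scratch-positive over scratch-negative cells was 1.38 times as high in monocytes/macrophages but 1.61-fold lower in fibroblasts. Both directions depended on the cells compared. Within finer groups the Fn1 ratio was 1.46 in macrophages but 0.860 in monocytes, and 0.815 in Rarres2-led but 1.14 in Sfrp2-led fibroblasts. For scratch-negative cells over the control, Fn1 was 1.70 times as high in fibroblasts but 1.62-fold lower in monocytes/macrophages.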

How the results depend on the processing

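No paired analysis was possible because each group had 1 library and the comparisons come from no replicate test. The counts of called genes kept within 1.5 times under a minimum of 200 genes per cell, with the 8 genes kept among the variable genes and with no minimum of UMIs, for all 7 comparisons of fibroblasts, tumour cells and monocytes/macrophages examined. For the others that moved, the cause was not tested. Between scratch-positive and scratch-negative fibroblasts the count was 2, and it was 1 with Scrublet's own calls, 1 with the mean of per-cell CPM, 4 at a 1.5-fold limit and 1 within the Sfrp2-led cluster alone. For scratch-negative over control fibroblasts it was 3, and 5 at a 1.5-fold limit. For scratch-positive over control fibroblasts it was 3, but 5 with a minimum of 1000 genes, at resolution 2.0, with median-of-ratios scaling and without cells of a Ptgds-led group (a choice made after seeing the data, as were the single-cluster values), and 6 at a 1.5-fold limit. In tumour cells it was 3, and 1 with Scrublet's own calls or the mean of per-cell CPM. In monocytes/macrophages, between the tumour libraries, it was 2, but 4 with the mean of per-cell CPM, 5 at a 1.5-fold limit, 1 with the lymphoid level subtracted and 0 within the monocyte cluster. Over the control it was 5 in scratch-negative cells, but 2 with the lymphoid level subtracted and 1 within the monocyte cluster; it was 3 in scratch-positive cells, but 5 with Scrublet's own calls or the mean of per-cell CPM and 0 within the monocyte cluster.

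Directions turned for 6 called ratios, 1 of them under both of 2 settings. Within the Sfrp2-led cluster, Thbs4 between the tumour libraries was 2.22 and Tnc in scratch-positive over control was 0.578. Thbs2 in tumour cells was 1.49 with the mean of per-cell CPM and 3.02 with the lymphoid level subtracted. With that subtraction, Thbs2 between the tumour libraries in monocytes/macrophages was 4.39, and Sparc over the control was 0.0995 in scratch-negative and 0.0690 in scratch-positive cells. In each ratio after subtraction named here, 1 side lay below the lymphoid level and was set at 3 UMIs. These values are therefore bounds set by that floor, not measured ratios, and show no reversed signal. The 54 control fibroblasts and the 8 control UMIs of Thbs4 limit the precision of the fibroblast comparisons, and 1 library per group leaves the spread between animals unknown.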
